A study of Homo sapiens with 6 samples.

Results

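The 10 genes described here are SH3GLB1 and 9 genes of the early steps of autophagy, BECN1, UVRAG, PIK3C3, ULK1, ATG5, ATG7, ATG9A, MAP1LC3B and SQSTM1. They are 10 of the 20111 genes in the deposited table, taken by symbol, and all 10 passed the filter on low values. SH3GLB1 was chosen because its level had been seen to be low after siSHC1, so its values in that comparison are given as a description with no test. The other 9 were listed for their roles beside it, with earlier results of these data known. Messenger RNA was measured in MDA-MB-231 cells, an established triple-negative breast cancer line, transfected with an siRNA against SHC1 (siSHC1), an siRNA against NCOA3 (siNCOA3) or a control siRNA (siControl) and collected 24 h or 48 h later. SHC1 is an adaptor protein of receptor tyrosine kinases and NCOA3 is a coactivator of nuclear receptors. There was 1 library for each siRNA and time, 6 in all, and no untransfected cells are among them. The 24 h and 48 h libraries of an siRNA stand in for replicates. Nothing in the labels says that they came from separate cultures, so the p-values cover the spread of these 6 libraries alone, and that spread may be technical.

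Macroautophagy encloses cytoplasm in a double membrane, the autophagosome, and delivers it to the lysosome. It starts when the ULK1 kinase complex activates a lipid kinase complex built from PIK3C3 (VPS34) and BECN1 (Beclin 1). UVRAG is an alternative subunit of that complex, and SH3GLB1 (endophilin B1, or Bif-1) is a membrane-curving protein that binds UVRAG and through it BECN1. ATG9A carries membrane to the growing structure, ATG7 and ATG5 act in the conjugation reactions that attach LC3 (MAP1LC3B) to lipid, and SQSTM1 (p62) brings ubiquitinated cargo to LC3. Transcript levels do not measure autophagic flux.

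A stretch of the SH3GLB1 transcript is shown because it holds a 7-base word, GCCCATC, that an earlier analysis of these same libraries had found to be frequent in 3′ UTRs of genes that were lower after siSHC1. SH3GLB1 lies on chromosome 1 at chr1:86704570-86748184 on the plus strand (GRCh38, GENCODE release 29; the authors' build was hg19, and no coordinates were taken from their table). The word starts at base 23 of the 3′ UTR of its transcript with the longest 3′ UTR, and the window printed is chr1:86743247-86743276. UVRAG and the cargo receptor NBR1 are shown beside it. UVRAG is the other member with the word, and NBR1 is a listed autophagy gene with the word that was called lower after siSHC1. The UVRAG window is chr11:76143013-76143042 and the NBR1 window chr17:43210176-43210205, both on the plus strand of GRCh38. Each line gives 30 bases of the 3′ UTR in the sense direction, with the word in capitals.
SH3GLB1: atggaaaggttGCCCATCatgactttgtat
UVRAG: gatctgcagaaGCCCATCttcctccacatg
NBR1: atctgtatagaGCCCATCgttgagttacca

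Of the 10 genes, SH3GLB1 and UVRAG hold the word in the 3′ UTR, which is 20.0%, against 8.96% of the 11401 tested genes with a 3′ UTR of at least 30 bases. Only the sense strand was searched. The word was picked by fold changes of these same libraries and therefore lends no support to them. No siRNA sequence was at hand, and whether siSHC1 pairs with the word was not tested.

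The libraries carried the changes that their labels name. SHC1 stood at 14.7 and 15.5 FPKM (fragments scaled to gene length and to the library's fragments) at 24 h and 48 h after siSHC1, against 103 and 119 FPKM after siControl. NCOA3 stood at 1.72 and 1.85 FPKM after siNCOA3, against 10.3 and 11.4 FPKM after siControl. Total FPKM per library ran from 495518 to 553073, lowest in the siControl library of 24 h. Of the 4 markers of the line, VIM, CD44 and AXL stood between 362 and 1020 FPKM in every library. EGFR, the fourth, had 32.9 and 28.7 FPKM after siSHC1, against 48.9 and 44.4 FPKM after siControl, and fell by 0.62 ± 0.09 on the log2 scale (limma adjusted p = 0.0164). ESR1 reached at most 0.0922 FPKM and PGR was listed at 0 in all 6 libraries. Markers of other cell types, of which 6 of 7 were matched, summed to between 4.85 and 5.71 FPKM after siSHC1, 5.001 and 5.14 FPKM after siNCOA3, and 5.10 and 5.76 FPKM after siControl, nearly all of it GATA3.

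In siControl cells the highest level among the 10 genes was that of SQSTM1, at 175 and 162 FPKM at 24 h and 48 h. BECN1 (55.3 and 68.5 FPKM) and SH3GLB1 (54.2 and 59.7 FPKM) followed, and their ranges overlapped. PIK3C3 had 40.7 and 51.1 FPKM, ATG9A 29.4 and 37.9 FPKM, MAP1LC3B 19.4 and 21.5 FPKM, and ATG7 14.1 and 13.96 FPKM, in that order and without overlap between neighbours. UVRAG (9.59 and 9.46 FPKM), ATG5 (8.67 and 8.58 FPKM) and ULK1 were lowest. ULK1, at 5.69 and 10.5 FPKM, spanned the levels of UVRAG and ATG5. Taken as FPKM, which are per length, these levels can be set beside each other. Over all 6 libraries UVRAG and BECN1 varied least, with a highest scaled level 1.22 and 1.24 times the lowest, and SH3GLB1 varied most, at 3.20 times.

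**Figure D1:**
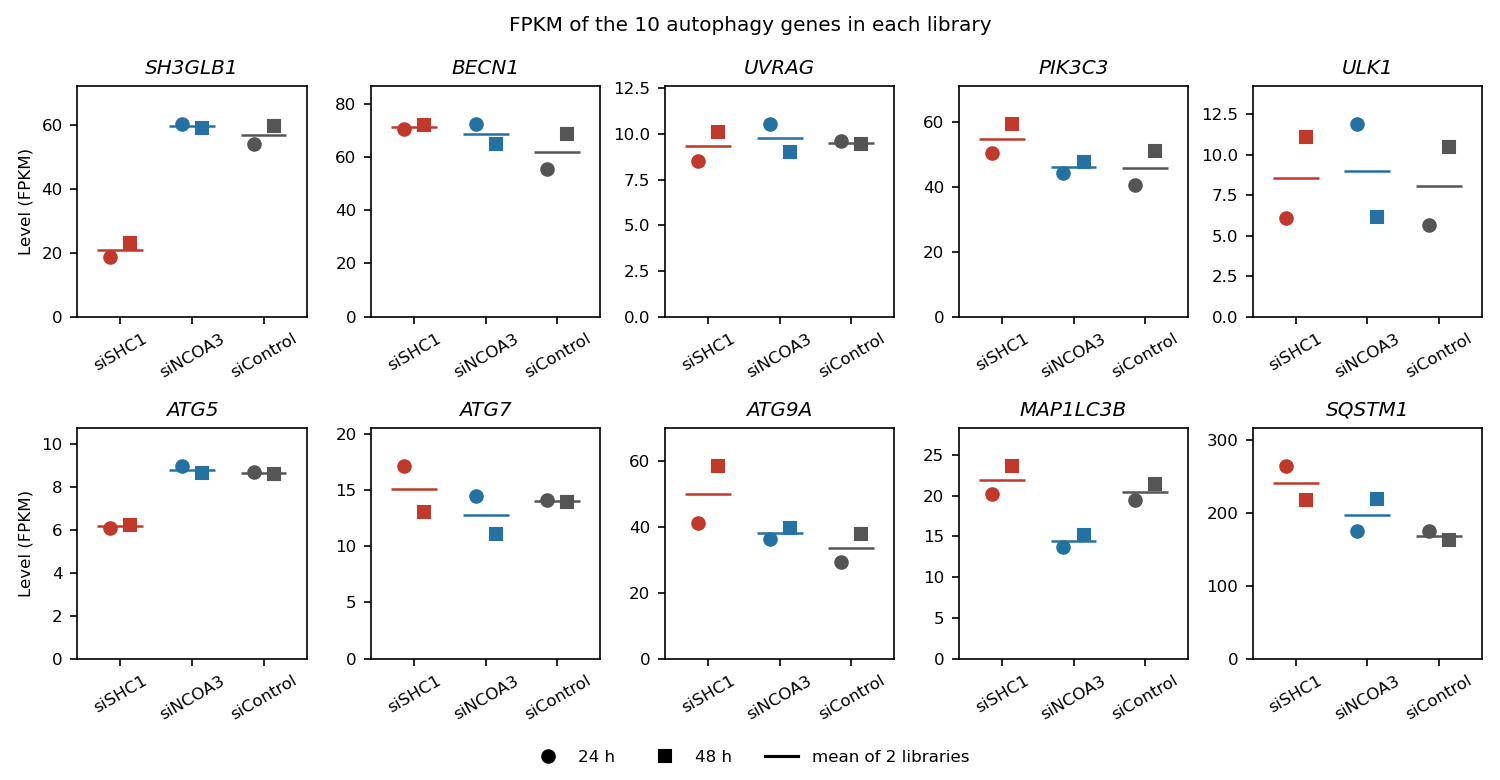
Level of each of the 10 genes (FPKM, axis from 0) in every library, by siRNA, with circles for 24 h, squares for 48 h and a line at the mean of the 2 libraries. SH3GLB1 and ATG5 are lowest in both siSHC1 libraries, MAP1LC3B is lowest in both siNCOA3 libraries, and ULK1 lies near 6 or near 11 FPKM.

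siSHC1 was set against siControl to describe these transcripts after that siRNA. The labels name no further siRNA against SHC1, so loss of SHC1 and other effects of the siRNA cannot be told apart. SH3GLB1 had 18.6 and 23.2 FPKM at 24 h and 48 h after siSHC1, against 54.2 and 59.7 FPKM after siControl. Both siSHC1 libraries lay far below both siControl libraries, at 32.1% and 39.5% of the siControl level after scaling. The difference in log2(scaled FPKM + 1), the scale of every difference given here, was -1.59 at 24 h and -1.30 at 48 h. The fitted difference over both times was -1.45 ± 0.10 (SE, n = 2 libraries per siRNA), a 2.73-fold lower level and the 9th lowest of 11690 tested genes. These are the values that chose the gene. In bulk libraries, less RNA per cell and fewer cells with the transcript cannot be told apart.

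None of the 3 members of the lipid kinase complex that SH3GLB1 joins passed the test by limma after siSHC1. BECN1 had 70.3 and 72.1 FPKM after siSHC1, against 55.3 and 68.5 FPKM after siControl, and its fitted difference was 0.17 ± 0.10 (limma adjusted p = 0.307). PIK3C3, its catalytic subunit, had 50.5 and 59.2 FPKM after siSHC1, against 40.7 and 51.1 FPKM after siControl (0.22 ± 0.08, limma adjusted p = 0.141). The siSHC1 libraries of BECN1 lay above those of siControl, while those of PIK3C3 overlapped them. UVRAG, the direct partner of SH3GLB1, had 8.53 and 10.1 FPKM after siSHC1, against 9.59 and 9.46 FPKM after siControl, with the siControl values inside the range of siSHC1 (-0.06 ± 0.13, limma adjusted p = 0.796). UVRAG also carries the 7-base word, at base 1611 of the 1782 bases of its longest annotated 3′ UTR. Whether the position of the word goes with the difference was not tested.

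Of the 9 genes other than SH3GLB1, 2 were called after siSHC1, ATG9A higher and ATG5 lower, against 6.42% of all 11690 genes tested (751 genes, limma adjusted p under 0.05). As SH3GLB1 was chosen in this comparison, nothing is read from that count. ATG5, which is joined to ATG12 to form the complex that directs LC3 lipidation, had 6.09 and 6.21 FPKM after siSHC1, against 8.67 and 8.58 FPKM after siControl. The groups did not overlap and the values within each group lay close together. ATG5 fell by 0.46 ± 0.10 (limma adjusted p = 0.0495), and its 3′ UTR lacks the word. ATG9A, the membrane-spanning protein of the vesicles that seed the autophagosome, had 41.2 and 58.2 FPKM after siSHC1, against 29.4 and 37.9 FPKM after siControl. Within each time it was higher after siSHC1, at 131% and 157% of siControl, and it rose by 0.51 ± 0.11 (limma adjusted p = 0.0425). Both calls lie close to the threshold. That of ATG5 was lost when any single library was left out (adjusted p from 0.0603 to 0.234), and that of ATG9A was lost without the siSHC1 library of 48 h (0.225), the siControl library of 24 h (0.164) or that of 48 h (0.182), by limma.

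SQSTM1 had 264 and 218 FPKM after siSHC1, against 175 and 162 FPKM after siControl. Both siSHC1 libraries were higher, by 0.50 and 0.45 on the log2 scale at 24 h and 48 h, but the fitted difference of 0.47 ± 0.15 did not pass (limma adjusted p = 0.112). It passed when the siNCOA3 library of 24 h or of 48 h was left out of the shared fit (limma adjusted p = 0.0168 and 0.0136). MAP1LC3B had 20.3 and 23.6 FPKM after siSHC1, against 19.4 and 21.5 FPKM after siControl, with overlapping groups (0.06 ± 0.09, limma adjusted p = 0.722). ATG7, the activating enzyme of the conjugation reactions, had 17.1 and 13.1 FPKM after siSHC1, against 14.1 and 13.96 FPKM after siControl (0.05 ± 0.10, limma adjusted p = 0.788). Its siControl values lay inside the range of siSHC1. ULK1, the initiating kinase, had 6.08 and 11.1 FPKM after siSHC1, against 5.69 and 10.5 FPKM after siControl (0.05 ± 0.43, limma adjusted p = 0.959). The pairs at each time were nearly equal, and the large error is that of the spread between libraries described further on.

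**Figure D2:**
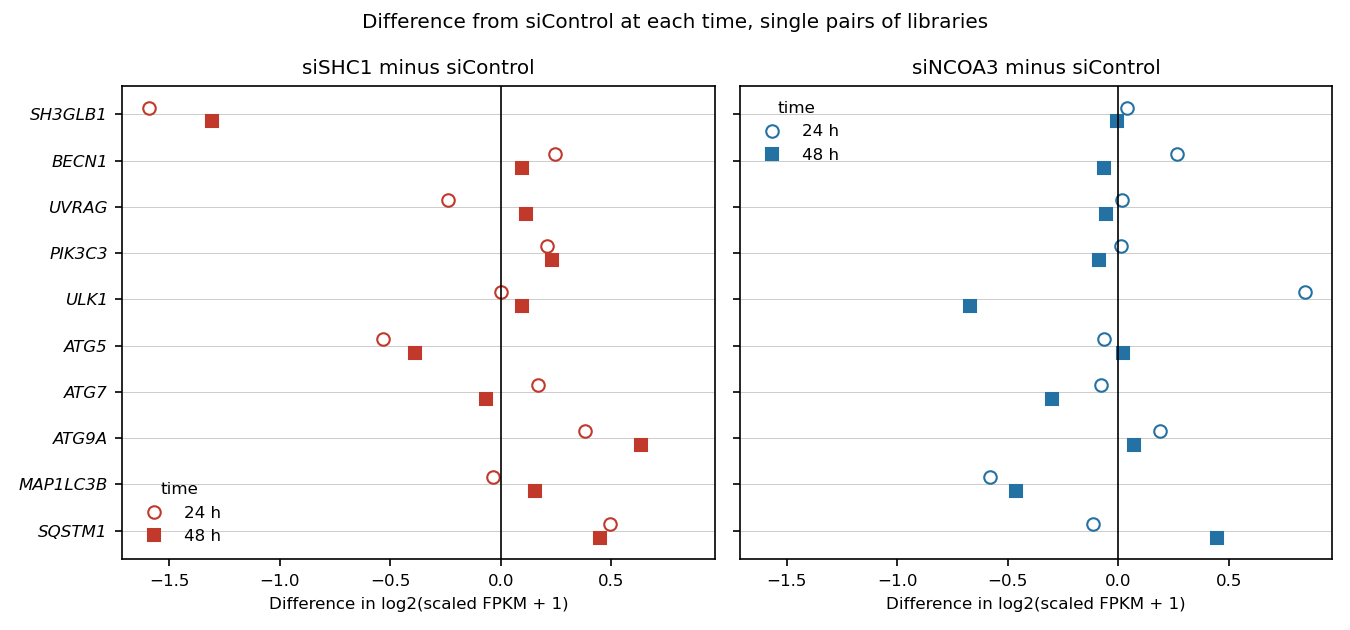
Difference from siControl in log2(scaled FPKM + 1) for each gene, siSHC1 on the left and siNCOA3 on the right, with open circles for 24 h and filled squares for 48 h. Each symbol compares 2 single libraries, and SH3GLB1 at -1.59 and -1.30 after siSHC1 is the lowest pair, while ULK1 after siNCOA3 lies on opposite sides of 0.

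siNCOA3 was set against siControl in the same way and with the same limit. SH3GLB1 was chosen by its level after siSHC1 and not by this comparison, though the siControl libraries are shared with the comparison above. The other members were listed with earlier results of these data known. SH3GLB1 had 60.2 and 59.0 FPKM after siNCOA3, against 54.2 and 59.7 FPKM after siControl, with overlapping groups. Its fitted difference was 0.02 ± 0.10 (limma adjusted p = 0.974). Of the 10 genes 0 were called by limma, against 0.111% of all genes (13 of 11690). At an unadjusted p under 0.05 stood 1 of the 10, close to the 10.5% of all genes. That gene was MAP1LC3B, which had 13.7 and 15.2 FPKM after siNCOA3, against 19.4 and 21.5 FPKM after siControl. The groups did not overlap, the level was 65.3% and 71.4% of siControl at 24 h and 48 h, and the difference of -0.52 ± 0.09 missed the threshold (limma adjusted p = 0.185). Its near-identical copy MAP1LC3B2, between which and MAP1LC3B reads are hard to divide, had 13.9 and 15.9 FPKM after siNCOA3, against 15.6 and 18.4 FPKM after siControl (-0.23 ± 0.11, limma adjusted p = 0.519).

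None of the remaining members passed the test by limma after siNCOA3. BECN1 had 72.2 and 65.0 FPKM after siNCOA3, PIK3C3 44.3 and 47.7 FPKM, UVRAG 10.5 and 8.999 FPKM, and ATG5 8.94 and 8.64 FPKM. Their fitted differences from siControl ran from -0.04 (PIK3C3) to 0.10 (BECN1), and none passed (limma adjusted p from 0.760 to 0.978). ATG9A had 36.4 and 39.5 FPKM and ATG7 had 14.4 and 11.1 FPKM after siNCOA3, with differences of 0.13 ± 0.11 and -0.19 ± 0.10 (limma adjusted p = 0.716 and 0.596). SQSTM1 had 175 and 219 FPKM after siNCOA3, which put it at 92.4% of siControl at 24 h and 137% at 48 h. The fitted difference of SQSTM1 was 0.17 ± 0.15 (limma adjusted p = 0.741), and it was 0.46 without the siNCOA3 library of 24 h and -0.12 without that of 48 h.

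ULK1 stood apart from the other members in how its libraries fell. It had 11.9 and 6.15 FPKM at 24 h and 48 h after siNCOA3, against 5.69 and 10.5 FPKM after siControl. The level was therefore 193% of siControl at 24 h and 59.2% at 48 h, and the fitted difference of 0.09 ± 0.43 averages opposite values (limma adjusted p = 0.962). The siSHC1 libraries, at 6.08 and 11.1 FPKM, followed the siControl order. Over the 6 libraries ULK1 was near 6 FPKM in 3 and near 11 FPKM in 3, with the siNCOA3 pair in the reverse order of time. No replicate exists within an siRNA and time, so a change with siRNA and time and variation of single libraries cannot be told apart.

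siSHC1 and siNCOA3 were also compared directly, with neither group being the control. Of the 9 genes other than SH3GLB1, 2 were called, MAP1LC3B higher and ATG5 lower, against 9.74% of all genes (1139 of 11690). This comparison uses the siSHC1 libraries in which SH3GLB1 was chosen, so nothing is read from the count, and the fitted difference of SH3GLB1, -1.46 ± 0.10, is a description. MAP1LC3B had 20.3 and 23.6 FPKM after siSHC1, against 13.7 and 15.2 FPKM after siNCOA3, with a fitted difference of 0.58 ± 0.09 (limma adjusted p = 0.0165). ATG5 had 6.09 and 6.21 FPKM after siSHC1, against 8.94 and 8.64 FPKM after siNCOA3, and fell by 0.44 ± 0.10 (limma adjusted p = 0.0456). The groups of both genes did not overlap. By limma the MAP1LC3B call was lost without the siSHC1 library of 48 h (adjusted p = 0.0968) or the siNCOA3 library of 24 h (0.0575) or 48 h (0.0833), and that of ATG5 without any single library (0.0554 to 0.195). ULK1, at -0.04 ± 0.43, became 0.74 without the siNCOA3 library of 24 h and -0.82 without that of 48 h, past the threshold in opposite directions (limma adjusted p = 0.0423 and 0.0472).

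Between 48 h and 24 h, over the 3 siRNAs, 0 of the 10 genes were called by limma, against 0.0257% of all genes (3 of 11690). At an unadjusted p under 0.05 stood 3 of the 10, against 14.2% of all genes. The 3 were ATG9A at 0.30 ± 0.09, PIK3C3 at 0.20 ± 0.07 and ATG7 at -0.27 ± 0.08 (SE, n = 3 libraries per time, limma adjusted p = 0.288, 0.300 and 0.293). ATG9A and PIK3C3 were higher and ATG7 lower at 48 h under each of the 3 siRNAs. SH3GLB1 had a fitted difference of 0.12 ± 0.08 (limma adjusted p = 0.550), of which the siSHC1 pair gave 0.32, the siNCOA3 pair -0.01 and the siControl pair 0.04.

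The rest of the pathway was described from 8 lists of its parts, and a ninth held the endophilins. Outside the 10 genes the 8 lists hold 74 genes, of which 70 passed the filter on low values, and ATG9B, MAP1LC3C, FAM134B and DEPTOR, at no more than 0.819 FPKM, did not. After siSHC1, 3 of the 70 were called, or 4.29%, 2 higher and 1 lower, against the 6.42% of all genes. At an unadjusted p under 0.05 by limma stood 25 of the 70, or 35.7%, against 26.3% of all genes. The median fitted difference of the 70 was 0.04, against 0.0036 for all genes tested. NBR1, a cargo receptor related to SQSTM1, had 16.3 and 18.8 FPKM after siSHC1, against 28.0 and 35.3 FPKM after siControl, and fell by 0.85 ± 0.09 (limma adjusted p = 0.00590). BNIP3 and BNIP3L, receptors that bring mitochondria to autophagosomes and are induced by hypoxia, rose by 0.66 ± 0.09 and 0.52 ± 0.08 (limma adjusted p = 0.0141 and 0.0240). BNIP3 had 333 and 421 FPKM after siSHC1, against 200 and 267 FPKM after siControl. The NBR1 call held with each library left out, that of BNIP3 was lost without the siSHC1 library of 48 h (limma adjusted p = 0.0591), the siControl library of 24 h (0.1045) or that of 48 h (0.0676), and that of BNIP3L was lost without any of the siSHC1 and siControl libraries (0.0597 to 0.149). Without the time term the limma adjusted p was 0.0723 for BNIP3 and 0.119 for BNIP3L, and without a filter on low values it was 0.0871 for NBR1, 0.119 for BNIP3 and 0.122 for BNIP3L.

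By step, and with the 10 genes counted in, 3 of 11 tested cargo receptors were called after siSHC1, 1 of 11 genes of LC3 and ATG12 conjugation (ATG5) and 1 of 7 genes of ATG9 and phagophore growth (ATG9A), against the 6.42% of all genes. At an unadjusted p under 0.05 stood 6, 4 and 5 genes of these lists, against 26.3% of all genes. The 11 genes of the Beclin and PIK3C3 complexes had 0 calls by limma after siSHC1 and 1 unadjusted p under 0.05, and the 5 of the ULK1 complex 0 calls and 1. The 6 ATG8 family genes had 0 calls and 2, the 13 of autophagosome fusion 0 calls and 3, and the 15 upstream kinases and transcription factors 0 calls and 7. Among the uncalled values, PLEKHM1, an adaptor of lysosome fusion, stood at -0.42 ± 0.13 and the SNARE protein VAMP8 at 0.33 ± 0.11 (limma adjusted p = 0.110 and 0.108). The ATG8 proteins MAP1LC3A and GABARAP stood at -0.34 ± 0.11 and 0.33 ± 0.08 (limma adjusted p = 0.103 and 0.0685). TFEB, a transcription factor of lysosome and autophagy genes, stood at 0.47 ± 0.15 and PRKAA2, a catalytic subunit of the AMP-activated kinase, at 0.35 ± 0.12 (limma adjusted p = 0.117 and 0.138). Their list of 15 upstream genes had no common direction, with 7 above 0 and 8 below. On the lower side MTOR stood at -0.33 ± 0.09 and PRKAA1 at -0.30 ± 0.09 (limma adjusted p = 0.0903 and 0.103). In the conjugation list ATG4D, a protease of ATG8 proteins, stood at 0.48 ± 0.12 and ATG16L1, the partner of ATG5, at 0.39 ± 0.10 (limma adjusted p = 0.0679 and 0.0664).

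**Figure D3:**
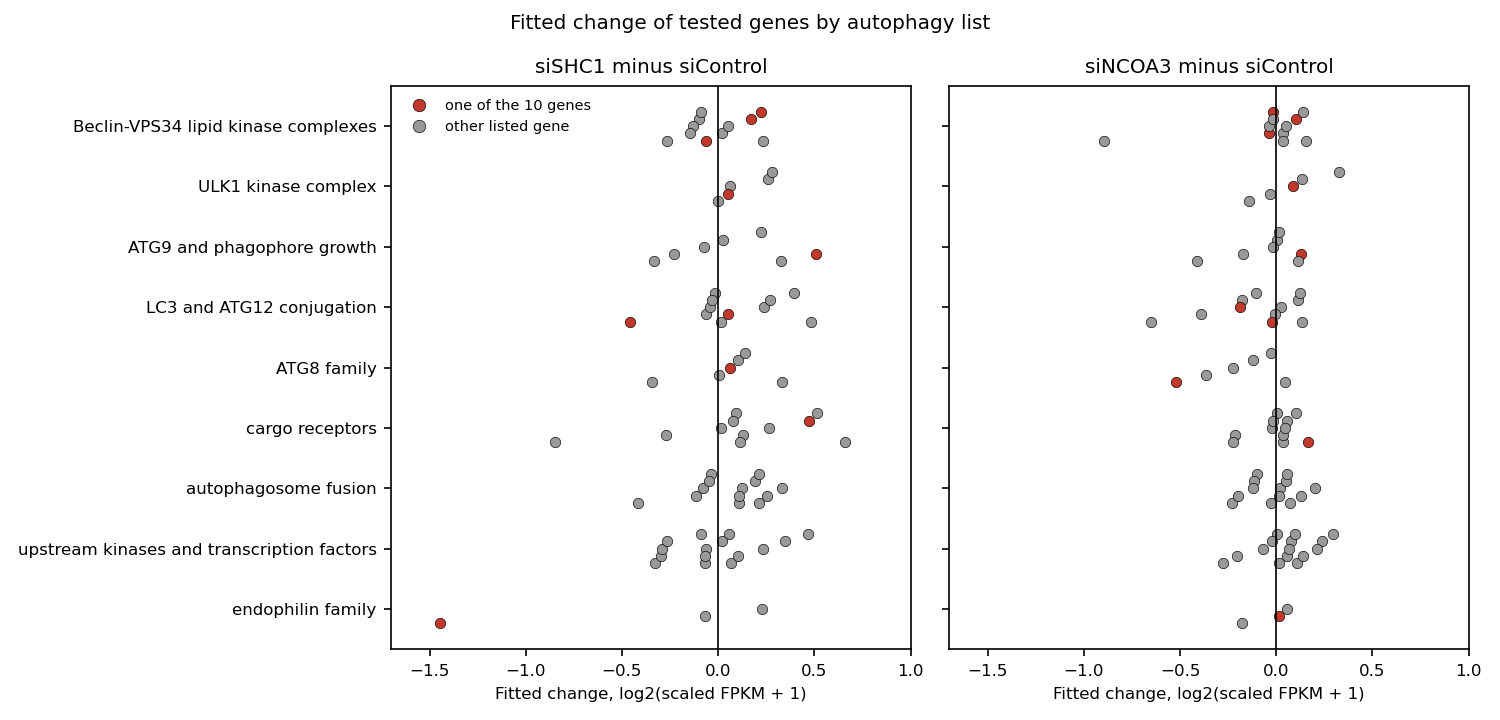
Fitted difference from siControl in log2(scaled FPKM + 1) of each tested gene, by list, after siSHC1 (left) and siNCOA3 (right), with the 10 genes in red and the other listed genes in grey. SH3GLB1 at -1.45 and NBR1 at -0.85 are the lowest values after siSHC1, and BCL2L1 at -0.90 is the lowest after siNCOA3.

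After siNCOA3, 1 of the 70 was called, or 1.43%, against the 0.111% of all genes. It was BCL2L1, which encodes BCL-XL, a survival protein that also binds BECN1. BCL2L1 had 97.6 and 99.7 FPKM after siNCOA3, against 167 and 191 FPKM after siControl, and fell by 0.90 ± 0.07 (limma adjusted p = 0.00663). Without the siNCOA3 library of 24 h or 48 h, or the siControl library of 24 h or 48 h, its limma adjusted p was 0.0502, 0.0616, 0.0754 and 0.0644. At an unadjusted p under 0.05 by limma after siNCOA3 stood 9 of the 70, or 12.9%, against 10.5% of all genes. Between 48 h and 24 h 0 of the 70 were called by limma, with 18, or 25.7%, at an unadjusted p under 0.05, against the 14.2% of all genes.

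Between siSHC1 and siNCOA3, 7 of the 70 were called, or 10%, 6 higher and 1 lower, against the 9.74% of all genes. At an unadjusted p under 0.05 by limma stood 30 of the 70, or 42.9%, against 29.4% of all genes. NBR1 was lower after siSHC1 by 0.88 ± 0.09. BCL2L1 (0.77 ± 0.07) and the ATG16L1 relative ATG16L2 (0.89 ± 0.13) had the largest positive differences (limma adjusted p = 0.00370 for NBR1, 0.00265 and 0.0108). Against siControl, BCL2L1 stood at -0.13 after siSHC1 and -0.90 after siNCOA3. ATG16L2 stood at 0.24 ± 0.13 and -0.65 ± 0.13, neither of them called (limma adjusted p = 0.276 and 0.194). BNIP3 at 0.63, BNIP3L at 0.54, the phosphoinositide-binding protein WIPI1 at 0.50 and the cargo receptor OPTN at 0.49 were also higher after siSHC1 than after siNCOA3 (limma adjusted p from 0.0115 to 0.0413). The calls of NBR1 and BCL2L1 held with each library left out. Those of BNIP3 and BNIP3L were lost without the siSHC1 library of 48 h (limma adjusted p = 0.0583 and 0.0612) and those of OPTN and WIPI1 as well (0.159 and 0.222). Without the siNCOA3 library of 48 h the limma adjusted p was 0.0617 for ATG16L2, 0.0971 for BNIP3L, 0.158 for OPTN and 0.216 for WIPI1, and that of WIPI1 was also above the threshold without the siControl library of 24 h (0.0537) or 48 h (0.0520).

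Among the endophilins, the family of SH3GLB1, the low level after siSHC1 was seen in SH3GLB1 but not in its relatives. SH3GLB2, the closest paralogue, had 39.4 and 46.5 FPKM after siSHC1, 32.6 and 32.3 FPKM after siNCOA3, and 33.4 and 37.8 FPKM after siControl. Its siSHC1 libraries lay above all others, with a fitted difference from siControl of 0.23 ± 0.09 (limma adjusted p = 0.178). From siNCOA3 SH3GLB2 differed by 0.40 ± 0.09 (limma adjusted p = 0.0421), a call that was lost without any single library other than siSHC1 at 24 h (0.0548 to 0.250). SH3GL1 had 84.3 and 77.0 FPKM after siSHC1, against 78.2 and 86.6 FPKM after siControl (-0.07 ± 0.08, limma adjusted p = 0.630). SH3GL2 was listed at 0 in every library, and SH3GL3 did not exceed 0.00534 FPKM.

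The 7-base word was found in the 3′ UTR of 11 of the 82 tested genes of all lists with a 3′ UTR, or 13.4%. Besides SH3GLB1, UVRAG and NBR1 these were ATG13, BCL2L1, EPG5, MAP1LC3A, MTOR, PLEKHM1, PRKAA1 and STK11. All 11 had a fitted difference below 0 after siSHC1, with a median of -0.30, from -1.45 for SH3GLB1 to -0.0013 for ATG13. Of the 71 list genes without the word, 22 lay below 0, with a median of 0.08. Over all tested genes 699 of 1022 with the word and 4924 of 10379 without it lay below 0, with medians of -0.12 and 0.01. The word and SH3GLB1 were both chosen by values after siSHC1 in these same libraries. These splits are therefore a description, and nothing is read from them. Of the 11, NBR1 was called lower by limma, SH3GLB1 is given without a test, and the other 9 were not called. The word starts at base 2 of the 3′ UTR in PLEKHM1, 17 in MTOR, 23 in SH3GLB1 and 113 in both BCL2L1 and NBR1. It starts at base 281 in ATG13, 288 in MAP1LC3A, 667 in STK11, 1038 in PRKAA1, 1611 in UVRAG and 3658 in EPG5. BCL2L1 and NBR1, with the word at the same base, had fitted differences of -0.13 and -0.85 after siSHC1. Whether position goes with the size of the difference was not tested.

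**Figure D4:**
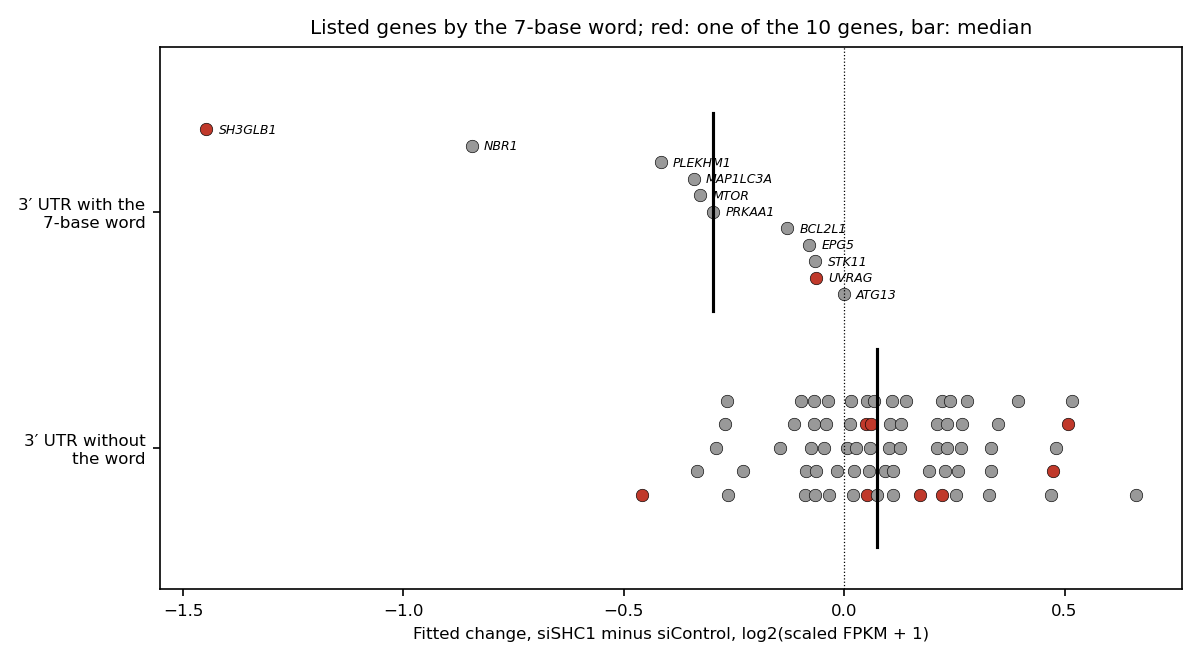
Fitted difference between siSHC1 and siControl in log2(scaled FPKM + 1) of the listed genes, above for the 11 whose 3′ UTR holds the 7-base word and below for the 71 whose 3′ UTR does not, with the 10 genes in red and a bar at each median. The medians are -0.30 and 0.08, and SH3GLB1 at -1.45 and NBR1 at -0.85 lie lowest. The word and SH3GLB1 were chosen by values after siSHC1 in these same libraries, so the split is a description.

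The genes whose levels over the 6 libraries were most like those of SH3GLB1 were searched among 8925 tested genes averaging 5 FPKM or more. By Pearson's r of log2(scaled FPKM + 1) over the 6 libraries they were TPD52L2 (0.9993), TAF6 (0.998), PBX2 (0.998), SRPR (0.998) and SLC25A44 (0.997). The likeness is that of the siSHC1 pair lying below the other 4 libraries. TPD52L2 had 22.2 and 28.6 FPKM after siSHC1, 92.3 and 94.7 FPKM after siNCOA3, and 85.1 and 89.6 FPKM after siControl. Among the other members ATG5 was most like SH3GLB1, with an r of 0.98 and its lowest levels also in the siSHC1 pair, and SQSTM1 least, at -0.80. The low siSHC1 values that set these r are those that chose SH3GLB1, so nothing is read from them.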

How the data were processed

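Per the labels' protocols, Trizol RNA went into a stranded mRNA library kit. The submitters' processing notes name STAR, Cufflinks, DESeq2 and hg19 without their roles. Annotation and strand setting were not given in the sources used. Although its name speaks of read counts, the deposited table does not hold whole numbers, and its values were taken as FPKM. The depth in fragments is unknown, so no counting interval is given.

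FPKM were scaled by the median of ratios over 11042 genes at 1 FPKM or more in all libraries. Genes with at least 1 scaled FPKM in 2 libraries (11690) were tested on log2(scaled FPKM + 1), pseudocount 1, which understates changes of low genes. Additive siRNA and time terms were fitted over all 6 libraries with limma 3.58.1 (R 4.3.3), using a mean-variance trend and robust moderation, leaving 2 residual degrees of freedom, and its error holds any siRNA-by-time difference. Each of 4 comparisons had its own Benjamini-Hochberg adjustment, with a threshold of 0.05. Differences at a single time have no replicate check.

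The members and lists were chosen with earlier results of these data known. The 88 list symbols all matched, 3 through older symbols. Named were the members, the targets, the endophilins, called list genes (up to 4 per list and comparison), up to 2 uncalled ones with a large change, and the 5 genes most like SH3GLB1. The gene's longest 3′ UTR in a protein-coding transcript of GENCODE release 29 (GRCh38) was used. Alternatives were other scalings, filters and pseudocount, no robust moderation, no time term, and leaving out each library. Python 3.11.15 and matplotlib 3.10.9 made the plots.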

Additional observations from a re-analysis of the deposited data

Results flagged for a closer look

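The differences at 24 h and 48 h had opposite signs for some of the 10 genes. Each rests on single libraries and the difference between the times was not tested. For siSHC1 minus siControl the value at 48 h less that at 24 h was 0.35 for UVRAG, -0.23 for ATG7 and 0.19 for MAP1LC3B.

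For siNCOA3 minus siControl it was -1.52 for ULK1, with 0.85 at 24 h and -0.67 at 48 h, and 0.56 for SQSTM1, with -0.11 at 24 h and 0.45 at 48 h. The other values for siNCOA3 minus siControl were -0.33 for BECN1, -0.097 for PIK3C3, 0.083 for ATG5, -0.071 for UVRAG and -0.044 for SH3GLB1.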

How the results depend on the processing

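SH3GLB1 stood between -1.60 and -1.29 relative to siControl after siSHC1 under 13 of 13 alternatives. The call of ATG5 after siSHC1 was kept under 3 of 13, that of ATG9A under 7, and between siSHC1 and siNCOA3 that of MAP1LC3B under 9 and that of ATG5 under 5. Without a filter on low values 0 of the calls of other listed genes named in the text were kept (limma adjusted p from 0.0507 to 0.202). With no replicate block those of BNIP3, BNIP3L, OPTN, WIPI1 and SH3GLB2 between siSHC1 and siNCOA3 were lost (0.0612 to 0.105). The 2 other members called after siSHC1 became 1 without scaling, with equal library totals or without robust moderation, 0 without a filter on low values or with no replicate block (no time term), and 0 to 2 with a library left out. The 2 called between siSHC1 and siNCOA3 became 0 without a filter, 1 with no replicate block and 0 to 2 with a library left out. For siNCOA3 with siControl and for time the count of the 9 was 0 under all 13 alternatives.

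Over all genes, the 751 calls for siSHC1 became 2 without a filter, 226 with no replicate block and 62 to 867 with a library left out. The 1139 between siSHC1 and siNCOA3 became 4, 450 and 233 to 1034. The 13 for siNCOA3 became 7 without scaling, 0 without a filter and 2 to 38 with a library left out. The 3 for time became 0 without a filter, 0 with 1 FPKM asked of all 6 libraries, 1 with no replicate block and 0 to 64 with a library left out. The split of 363 higher and 388 lower for siSHC1 became 209 and 497 with equal library totals, and that of 625 and 514 between siSHC1 and siNCOA3 became 510 and 647. The cause was not tested.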

Other observations

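The alternation of ULK1 was set beside all genes, with a threshold chosen after its values were seen. In 40 of 11690 tested genes the 48 h library differed from the 24 h library by at least 0.5 on the log2 scale under every siRNA, and in 23 of them the signs were unlike. ULK1 shared its pattern, higher at 48 h after siSHC1 and siControl and lower after siNCOA3, with ARHGAP19-SLIT1, CATSPER2, AP005482.1 and TP53INP1. TP53INP1, which encodes a stress-induced protein that binds LC3, differed by 0.75 after siSHC1, -0.60 after siNCOA3 and 0.94 after siControl, beside 0.79, -0.83 and 0.69 for ULK1. In the same order CATSPER2 differed by 0.66, -0.53 and 1.24, AP005482.1 by 1.13 after siControl, 0.63 after siSHC1 and -1.02 after siNCOA3. ARHGAP19-SLIT1 differed by 0.52 after siSHC1, -0.94 after siNCOA3 and 0.67 after siControl. Whether these genes have a role in common was not tested.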
